A study of Mus musculus with 6 samples.

Results

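A set of 9 genes of the rod photoreceptor were followed in RNA from the retinal pigment epithelium and choroid (RPE/choroid), namely Gnat1, Pde6a, Pde6b, Pde6g, Cnga1, Sag, Rcvrn, Prph2 and Rom1. They were chosen by name, as the lines of the processed table whose symbol equals one of these, and all 9 were found among 33924 genes. The RNA came from wild-type C57BL/6J mice, with 3 young libraries and 3 aged libraries, and a pair of eyes went into each library. Young animals carry the label 1 to 2 months, and aged animals carry 20 to 24 months in the title and 22 to 24 months as the time. The sex on each label is male. The study's methods differ from the labels here, since they speak of males and females and of somewhat older young mice. Retina and RPE/choroid were separated by dissection, and the rule that chose these genes took rod transcripts in the libraries as retina that had stayed attached. Neither that source nor whether each gene is limited to rods was tested.

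Rods are the photoreceptors of dim light, and their outer segments, stacks of membrane discs, touch the RPE. Light absorbed in the discs switches on transducin, a G protein; transducin releases the inhibited cyclic GMP phosphodiesterase, cyclic GMP falls, and the cation channel that it holds open closes. The response ends when arrestin stops the activation of transducin and the G protein is returned to rest. The RPE takes up the shed tips of the outer segments and returns the chromophore.

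For each gene the table gives 1 mean over the 6 libraries, in normalized counts, and no value for a single library, so no spread between mice can be put on any level below. The difference between aged and young mice was not analysed here, because the table holds it only as the authors' own comparison. The smallest means in the table fell on 6 repeated steps, from 0.148 to 0.200 normalized counts, shared by 1338 genes. Read as a single read in 1 library, the steps give scaling factors of 0.835 to 1.12, which differ by 1.35-fold at most. On that reading each rod gene rests on at least 9602 reads over the 6 libraries, and counting error alone is at most 1.02% of its mean. Counting error does not include the spread between mice.

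Every rod gene was abundant. Their means ran from 1916.95 normalized counts for Pde6g to 13164.5 for Sag, with a median of 6699.1, which is 81.6 times the median of 82.1 normalized counts among the 26681 genes with a mean above 0. In that ranking the lowest member stood at percentile 91.5 and the highest at percentile 99.6. Of the 9 genes, 3 lay in the top 1% and 6 in the top 2%. Together they held 62305.5 of 19192070.8 normalized counts, a share of 0.325% of the table. In a mixed tissue more cells of a type and more RNA per cell cannot be told apart, so these are shares of normalized counts and not of cells.

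**Figure D1:**
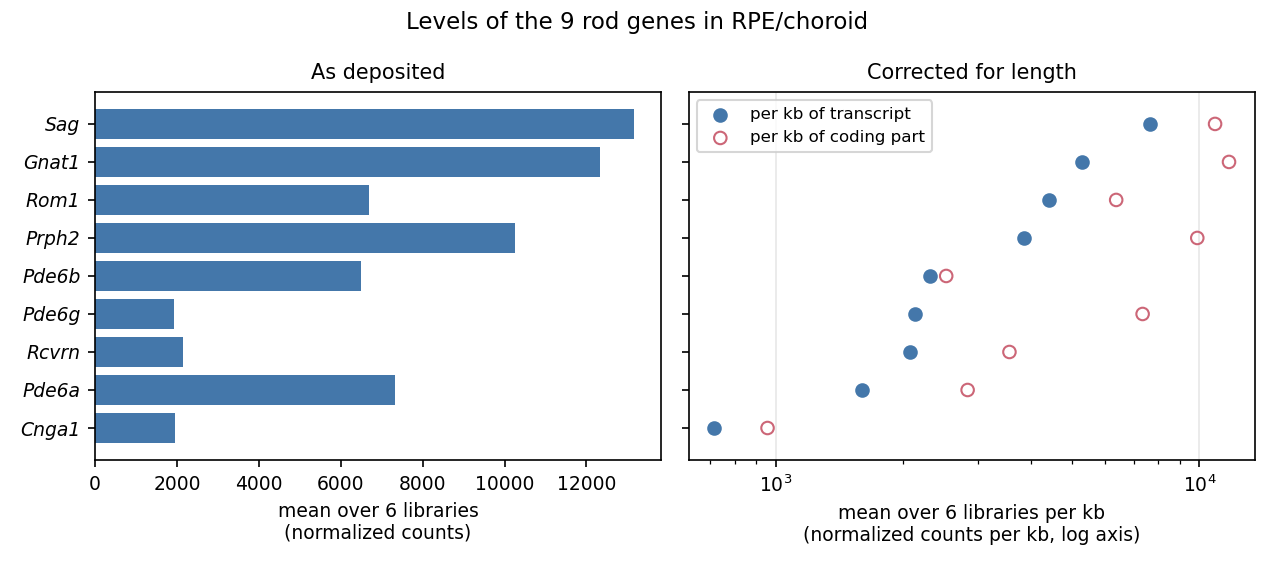
Levels of the 9 rod genes as a mean over 6 libraries. The left bars give normalized counts, and the right points give normalized counts per kb of transcript (filled) or of coding part (open) on a log axis; Sag and Gnat1 are highest and Cnga1 is lowest per kb by either length.

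Long transcripts yield more reads, so levels of different genes are given per kb of transcript unless another length is named. Other lengths can change a level and an order, and they are given for the rod genes and the main comparisons. Means in normalized counts and ranks are not corrected for length. The mean did grow with length in this table: across the 13847 protein-coding genes with a mean of at least 10, the median was 266 normalized counts in the shortest of 5 equal groups by length and 974 in the longest, with a Spearman correlation across genes of 0.28. Per kb the 9 genes spanned 10.7-fold and fell in the order Sag, Gnat1, Rom1, Prph2, Pde6b, Pde6g, Rcvrn, Pde6a and Cnga1. Without a spread between mice it cannot be said which neighbours in that order differ. Cnga1 was last by each of the 4 gene lengths tried. Sag was first by transcript length, came after Gnat1 by coding length and stood at place 6 when all annotated exons of a gene were joined, where its level was 1478 per kb.

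**Figure D2:**
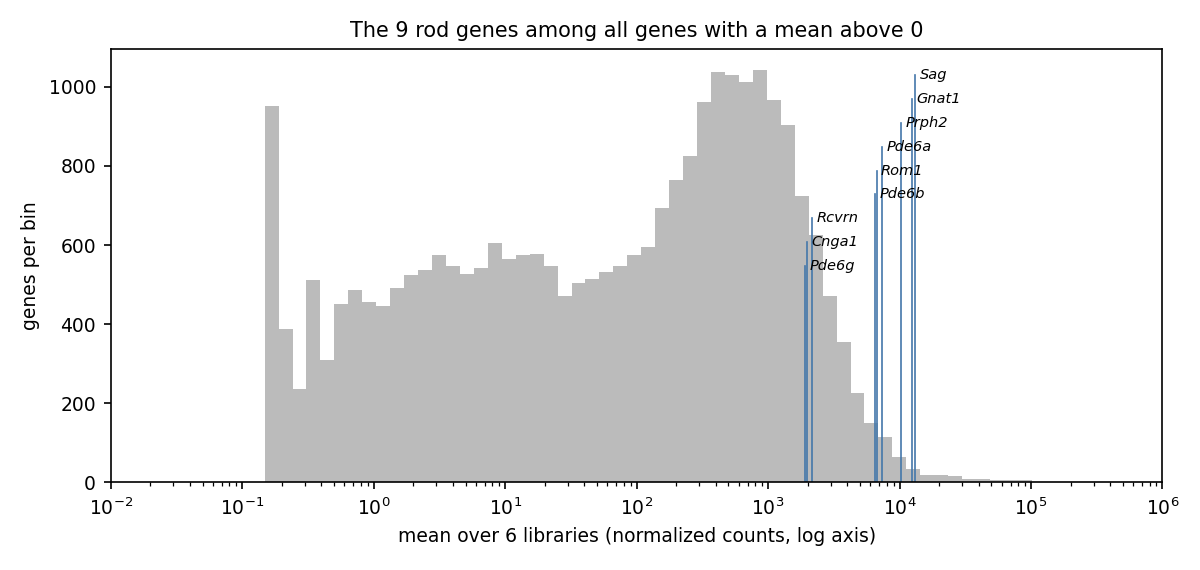
Histogram of the mean over 6 libraries for the 26681 genes with a mean above 0, on a log axis, with a line at each rod gene. Pde6g, Cnga1 and Rcvrn lie between 1916.95 and 2158.67 normalized counts, and the other 6 genes lie between 6486.93 and 13164.5, in the sparse upper tail.

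Gnat1 encodes the alpha subunit of rod transducin, the G protein of the rod light response. It lies on chromosome 9 at 107674474 to 107679712 (GRCm38, minus strand, 9 exons). Its mean was 12333.6 normalized counts, the 113th highest of all genes, and its level was 5298 normalized counts per kb. The beta subunit gene Gnb1, which many tissues also use, stood at 3710 normalized counts per kb and the rod gamma subunit gene Gngt1 at 3685, so Gnat1 was 1.43 and 1.44 times as high. By coding length Gnat1 was 1.03 times Gnb1 and 0.598 times Gngt1, whose coding part is short, so its order with Gngt1 turns with the length used.

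The phosphodiesterase is made of a catalytic pair, encoded by Pde6a and Pde6b, and an inhibitory subunit encoded by Pde6g. Pde6a, on chromosome 18 at 61220315 to 61289924 (plus strand, 22 exons), had a mean of 7321.59 normalized counts, or 1596 per kb. Pde6b, on chromosome 5 at 108388391 to 108432397 (plus strand, 22 exons), had a mean of 6486.93, or 2318 per kb. The ratio of Pde6a to Pde6b was 0.689 per kb of transcript and 1.12 per kb of coding part, because the annotated transcript of Pde6a is 4588 bases long and that of Pde6b 2799. Which of the catalytic genes is higher therefore depends on the length used. Pde6g, on chromosome 11 at 120447605 to 120453500 (minus strand, 4 exons), had the lowest mean of the 9, 1916.95 normalized counts, but its transcript of 900 bases is also the shortest, and its level of 2130 per kb of transcript lay between those of the catalytic genes. By coding length Pde6g was above both, and with all exons joined it was below both. Pde6a and Pde6b summed were 1.84 times Pde6g per kb of transcript, 0.730 times by coding length and 3.45 times with all exons joined, so this order turns with the length as well. Pde6d, which encodes a prenyl-binding protein that is used outside rods as well, was at 310 per kb.

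Cnga1 encodes the alpha subunit of the rod cyclic nucleotide-gated channel. It lies on chromosome 5 at 72603696 to 72644275 (minus strand, 9 exons) and had a mean of 1963.1 normalized counts, or 717 per kb, the lowest level of the 9. Its partner Cngb1, the beta subunit, was lower still at 103 per kb, and Cnga1 was 6.94 times as high. Cnga1 was the higher by each of the 4 lengths and without correction, from 3.07 times without correction to 8.45 times by the shortest transcript. The channel lets in calcium, which Slc24a1, the rod sodium, calcium and potassium exchanger, removes, and that gene stood at 839 per kb.

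Sag and Rcvrn act when the response is shut off. Sag encodes rod arrestin, which stops the activation of transducin. It lies on chromosome 1 at 87803680 to 87845158 (plus strand, 16 exons) and had the highest mean of the 9, 13164.5 normalized counts, at rank 100 in the table, and the highest level, 7658 per kb. Rcvrn encodes recoverin, a calcium sensor that holds back the kinase Grk1. It lies on chromosome 11 at 67695326 to 67703333 (plus strand, 3 exons) and had a mean of 2158.67 normalized counts, or 2076 per kb. Grk1 itself was at 773 per kb, so Sag was 9.91 and Rcvrn 2.69 times as high per kb of transcript. Grk1 has a transcript of 7431 bases for 1692 coding bases, and by coding length the ratios were 3.21 and 1.05. Sag was above Grk1 by each of the 4 lengths and without correction, while Rcvrn was 0.376 times Grk1 without correction.

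Prph2 and Rom1 encode tetraspanins that shape the rims of the outer segment discs. Prph2, on chromosome 17 at 46910459 to 46924933 (plus strand, 3 exons), had a mean of 10261.1 normalized counts, or 3850 per kb. Rom1, on chromosome 19 at 8927391 to 8929356 (minus strand, 3 exons), had a mean of 6699.1, or 4416 per kb. Prph2 was 0.872 times Rom1 per kb of transcript and 1.55 times Rom1 per kb of coding part, so their order also turns with the length used.

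Other genes of the rod cascade were measured with these. Of the 14 partner genes compared, 14 had a mean of at least 100 normalized counts, a limit that 48.2% of all genes with a mean above 0 also passed. Their levels ran from 103 per kb for Cngb1 to 6188 for Pdc, with a median of 898. Pdc, Gnb1 and Gngt1 were the highest, and 3 of the 14 were above the median of 2318 per kb of the 9 rod genes, or 2 without correction for length. Pdc encodes phosducin, a protein that binds transducin subunits. The genes that speed transducin back to rest, Rgs9, Gnb5 and Rgs9bp, were at 1146, 1237 and 256 per kb. By coding length the order turned, with Rgs9bp at 2377, Gnb5 at 1883 and Rgs9 at 1377 per kb. The guanylate cyclases that restore cyclic GMP, Gucy2e and Gucy2f, were at 141 and 258 per kb, and their calcium-sensing activators Guca1a and Guca1b at 2181 and 957.

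Cones use a paralogue of several of these proteins, so 5 rod genes were set beside their cone counterparts. Gnat1 was 16.0 times Gnat2 per kb of transcript, Pde6b 16.1 times Pde6c, Sag 20.7 times Arr3, Pde6g 37.4 times Pde6h and Cnga1 45.0 times Cnga3. The rod gene was the higher of every pair by each of the 4 lengths and without correction. The size of the ratio moved most for Pde6g over Pde6h, from 5.41 by coding length to 37.4, since the annotated transcript of Pde6h has 5940 bases for 249 coding bases. Sag over Arr3 ran from 6.93 with all exons joined to 26.2 without correction, Pde6b over Pde6c from 10.3 to 17.5 and Cnga1 over Cnga3 from 35.1 to 56.2. Gnat1 over Gnat2 moved least, from 16.0 to 18.4. The cone list of 11 genes had a median of 199 per kb and a highest value of 377, that of the short-wavelength opsin gene Opn1sw, so each of the 11 was below Cnga1, the lowest rod gene, per kb of transcript. That does not hold by every length, since Gngt2 and Pde6h were above Cnga1 by coding length, Opn1sw with all exons joined and Gngt2 by the shortest transcript.

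**Figure D3:**
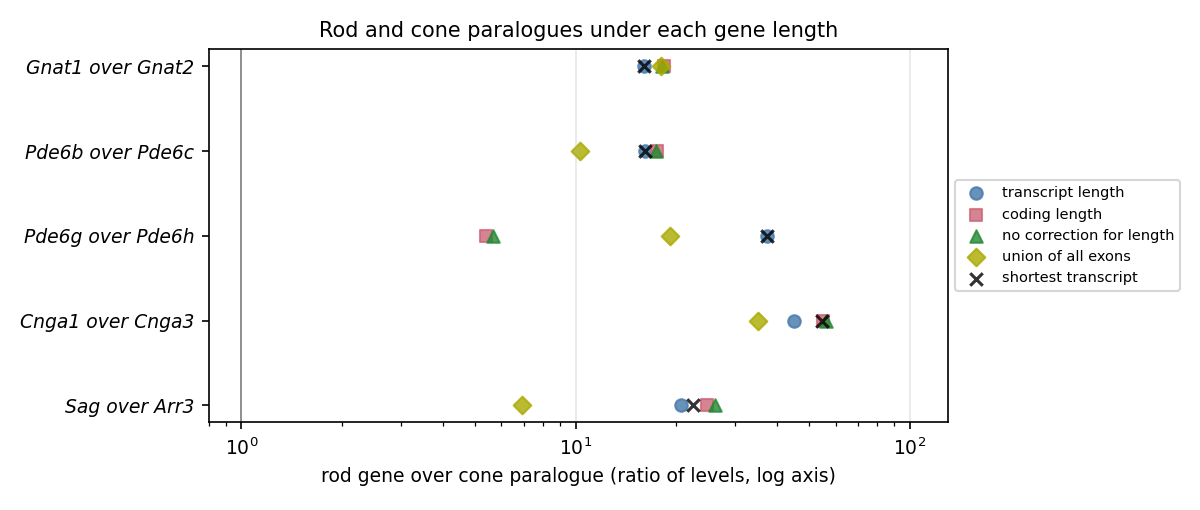
Ratio of each of 5 rod genes to its cone paralogue on a log axis, with a mark for each of 4 gene lengths and for no correction, and a line at equal levels. Each mark lies right of the line, from 5.41 for Pde6g over Pde6h by coding length to 56.2 for Cnga1 over Cnga3 without correction.

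The sequences of paralogues were compared because reads of near-identical genes can be divided wrongly. The coding parts of the 5 rod and cone pairs had between 63.8% identity (Sag and Arr3) and 75.8% identity (Pde6g and Pde6h) at aligned bases. Among the rod genes, Pde6a and Pde6b had 71.9% identity and Prph2 and Rom1 61.1%. No word of 31 bases was shared within any of these pairs. In the GENCODE transcripts, 8 of the 9 rod genes shared 0 of their 31-base words with another gene, and Pde6a shared 16 of 4522. Of the cone paralogues, Gnat2 shared 110 of 2024 and Pde6h 166 of 5794, and Arr3, Cnga3 and Pde6c shared 0. Genes that overlap a rod gene in the annotation are Glp2r over Rcvrn and the pseudogene Rps2-ps10 over Pde6a, both on the opposite strand, and the pseudogene Gm5297 over Cnga1 on the same strand. Whether strand was used in counting is not given in the sources used here.

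Marker genes of other retinal cells were set beside the rod genes. The lists differ in how abundant their genes are in their own cells, and no intact retina was at hand, so these levels do not give the amount of each cell type. Bipolar cells receive the photoreceptor signal, and their list of 12 genes had a median of 47.1 per kb, so the rod median of 2318 was 49.2 times as high. In that list, 11 genes were below the lowest rod gene. The exception was Trpm1, at 1815 per kb, a channel gene that pigment cells also express. After Trpm1 the highest were Pcp2 and Prkca, at 261 and 210 per kb. Grm6, the glutamate receptor gene of ON bipolar cells, stood at 17.5 per kb. Of the genes of amacrine, horizontal and ganglion cells, 18 were found in the table, with a median of 30.5 per kb, and each was below the lowest rod gene per kb of transcript. By coding length Calb2 and Sncg were above it, and with all exons joined Calb2, Sncg and Nefl were. The highest of these were Calb2, Slc6a9 and Rbpms, at 668, 539 and 453 per kb. The 12 Muller glia genes had a median of 1780 per kb, and 6 of them were above the rod median, Apoe, Rlbp1, Clu, Glul, Dkk3 and Car14. By coding length and without correction there were 5, since Car14 then fell below it. Apoe, Rlbp1 and Clu are also expressed by RPE or other cells, and the source of Glul, Dkk3 and Car14 here was not tested. Glul, the glutamine synthetase gene, stood at 10247 per kb, Dkk3 at 5238 and Car14, a carbonic anhydrase gene, at 3052. The other 6 were below the lowest rod gene per kb of transcript, among them Aqp4 and Kcnj10, the glial water and potassium channel genes, at 161 and 31.9.

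**Figure D4:**
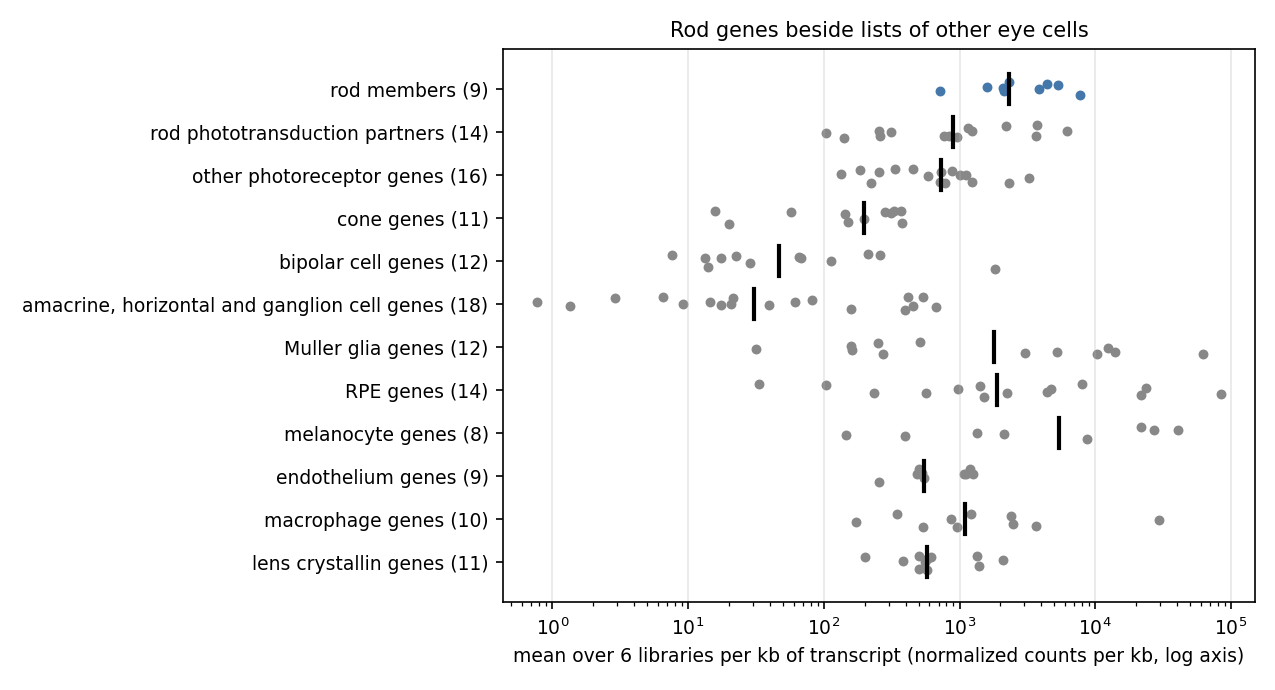
Level per kb of transcript for each gene of 12 lists on a log axis, with the number of genes in brackets and a bar at each median. The rod genes (blue) have a median of 2318, above the medians of 199 for cone genes, 47.1 for bipolar genes and 30.5 for amacrine, horizontal and ganglion cell genes.

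The labelled tissue was checked in the same way. Rpe65, the retinoid isomerase of the RPE, was at 23481 per kb, 3.07 times Sag and 4.43 times Gnat1. It was above both by each of the 4 lengths and without correction, from 2.51 to 15.3 times Sag and from 2.33 to 5.55 times Gnat1. Ttr, a carrier of thyroxine and retinol-binding protein, was at 83745 and Rgr, a retinal-binding opsin, at 21743. The 14 RPE genes had a median of 1887 per kb, below the rod median by a ratio of 1.23, but summed they held 1.57% of the table against 0.325% for the 9 rod genes, and Best1, a chloride channel gene of the RPE, was lowest at 33.6. Melanocyte genes, many of which the RPE shares, had a median of 5384, with Dct, Pmel and Tyrp1 highest. Endothelium genes, led by Cldn5, Plvap and Emcn, had a median of 547, and macrophage genes, led by Lyz2, C1qa and C1qc, one of 1089. The 11 crystallin genes, which are abundant in lens and of which several are also expressed in retina or RPE, had a median of 572 and were led by Cryaa, Cryba1 and Crybb2. Their source was not tested.

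Transcription factors that hold rod genes active were measured too. Nrl, which sets rod fate, was at 2311 per kb, Crx, the photoreceptor homeobox factor, at 785, and Nr2e3, which represses cone genes in rods, at 734. In the list of other photoreceptor genes, Unc119, Nrl and Rp1 were the highest per kb of transcript, at 3223, 2311 and 1245, and the median of the 16 was 725. By coding length the highest were Nrl, Unc119 and Crx, and without correction Rp1, Abca4 and Nrl. Because Crx and Nrl were measured, their short recognition letters were looked for in promoters of the rod genes. RefSeq windows (GRCm38.p6) of 250 bases before the start were at hand for 5 members, Cnga1, Pde6b, Prph2, Rom1 and Sag. The windows of Sag and Pde6b are shown because both hold each kind of letters. In capitals are TAATC (a homeodomain core that Crx can bind) and TGCTGA (part of a Maf-type element that Nrl can bind), or their reverse complements GATTA and TCAGCA. The Sag window is chr1:87803430-87803679 and that of Pde6b chr5:108388123-108388372, both on the plus strand.
Sag: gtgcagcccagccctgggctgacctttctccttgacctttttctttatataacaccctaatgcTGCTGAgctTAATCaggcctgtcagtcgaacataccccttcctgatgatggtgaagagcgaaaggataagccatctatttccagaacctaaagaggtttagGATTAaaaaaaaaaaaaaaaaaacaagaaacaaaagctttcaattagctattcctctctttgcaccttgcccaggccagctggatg
Pde6b: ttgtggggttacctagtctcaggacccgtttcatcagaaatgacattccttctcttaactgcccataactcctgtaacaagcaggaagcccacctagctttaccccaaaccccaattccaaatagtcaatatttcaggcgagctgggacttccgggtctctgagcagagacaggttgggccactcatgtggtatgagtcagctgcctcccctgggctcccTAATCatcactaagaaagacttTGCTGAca

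On either strand, TAATC was found in 4 of the 5 windows (Cnga1, Pde6b, Prph2 and Sag) and in 19.8% of 32851 windows of the same length over all genes. The longer TAATCC, which contains TAATC, was found in 2 windows (Cnga1 and Sag), against 6.25% of all, and TGCTGA in 2 (Pde6b and Sag), against 16.1%. The Rom1 window held none of them. The starts that RefSeq gives for Cnga1 and Prph2 lie inside the spans that GENCODE gives these genes, so their windows are promoters of the RefSeq transcripts. The letters were chosen with these windows in view and are a description of the sequence. They do not show which factor binds there.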

How the data were processed

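Stranded total RNA libraries, depleted of ribosomal RNA, were sequenced in read pairs. Per the study's methods and the labels, the authors used BBDuk for trimming, STAR for alignment to the Ensembl transcripts (GRCm38) and Sailfish for abundance, turned the estimates into normalized counts by total count and ran DESeq2. The deposited signal used here is baseMean, the mean of normalized counts over all 6 libraries. The authors' other 5 columns hold their fold changes, standard errors, test statistics and p-values and were not used. No column of values names a sample (0 columns), so no test was run.

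Levels per kb divide the mean by the length of the GENCODE vM21 (GRCm38) transcript with the longest coding part, the longer transcript on ties. This annotation is not the Ensembl release that the authors mapped to. Of the symbols, 28553 matched the annotation. Of the genes listed, 3 were found under an older symbol (Tfap2a, Tfap2b, Adgre1) and 1, Slc18a3, was not analysed here. Some genes of the lists are not reported here. Percentiles are among genes with a mean above 0. Python 3.11.15, pandas 2.3.3, numpy 2.4.6 and biopython 1.88 were used, and functions were tested on simulated data. Named genes are the 9 members, their cone paralogues, the partner list and the 3 highest of each list, with Grm6, Aqp4, Kcnj10, Glul, Dkk3, Car14, Gngt2, Sncg, Nefl, Abca4, Best1, Crx and Nr2e3 added from the lists after their values were seen. The members and lists were chosen with earlier results of these data known.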

Additional observations from a re-analysis of the deposited data

How the results depend on the processing

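Of the settings varied here, the gene length moved the values most, and the values have no replicate error against which to judge a shift. Mice, age group and the authors' quantification could not be varied. No paired analysis was possible because only a mean over all libraries was used, and for the same reason no replicate could be left out and no difference between aged and young mice was computed. The median level of the rod genes was 2318 normalized counts per kb of transcript, 6362 per kb of coding part, 1562 per kb of all exons joined and 6699 without correction, which are different scales. The median rod to cone ratio of 20.7 was 18.4 by coding length, 18.2 without correction, 18.0 by all exons and 22.5 by the shortest transcript. Pde6a over Pde6b was 0.689, but 1.12 by coding length, 1.13 without correction and 1.21 by all exons. The rod median over the RPE median was 1.23, and 1.74 by coding length, 1.47 without correction, 1.86 by all exons, 1.20 by the shortest transcript and 1.36 with means of log2 levels. The median percentile of 98.8 was 99.0 among all genes and 98.2 among genes with a mean of at least 10. The share of 0.325% was 0.349% without the 10 most abundant genes and 0.369% of protein-coding genes, which stood in for genes with a protein in the reference tables. The 14 partner genes passed limits of 1, 10 and 100 alike. The lengths by all exons and by the shortest transcript, and every change of length for the RPE comparison, the ratios to Gnb1, Gngt1, Grk1 and Pde6g and the list counts, were added once the values were known.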
